A study of Homo sapiens with 2 samples.

Results

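Oligosaccharyltransferase (OST) is the enzyme of the endoplasmic reticulum (ER) membrane that moves a preassembled glycan from a dolichol lipid onto asparagine residues of proteins entering the ER. Mammalian cells build it in 2 forms around a set of shared subunits. The form with the catalytic subunit STT3A is docked at the SEC61 translocon, through which proteins enter the ER, and glycosylates chains while they are being made. The form with STT3B acts mostly afterwards, on sites that STT3A has passed over, and carries a thioredoxin-like subunit, MAGT1 or TUSC3. The 10 genes described here were taken by symbol and comprised 5 shared subunits (RPN1, RPN2, DDOST, DAD1 and OST4), 2 genes of the STT3A form (STT3A and OSTC) and 3 of the STT3B form (STT3B, MAGT1 and TUSC3). All 10 were found once each among the 57820 gene IDs of both count files.

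The messages were measured in HEK293T, a cell line of human embryonic kidney origin. The design holds 1 control siRNA library and 1 library made after SRα had been targeted by siRNA. SRα (gene SRPRA) is the receptor subunit that receives ribosomes brought to the ER by the signal recognition particle, so the comparison asks whether messages for the enzyme that acts on arriving chains differ when this receptor is depleted. The labels used here state neither the siRNA sequences, dose and time of treatment nor whether a library is 1 culture or a pool. With 1 library a group there was no test and no p-value, and each interval below is a 95% interval that covers counting error only. In such bulk RNA, fewer cells of a kind and less RNA per cell cannot be told apart.

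The control siRNA library held 2445200 reads in genes and the SRα siRNA library 3896721. SRPRA stood at 205 and 117 CPM (the read count scaled to effective library size), a log2 ratio of -0.81 (-0.998 to -0.63), the lowest among the 4007 genes averaging 50 CPM or more. Of the markers checked for the cell line, VIM had 771 and 1485 reads, NEFM 273 and 528, KRT18 60 and 87, KRT8 23 and 29, and PAX2 1 and 7. The log2 ratios of VIM and NEFM were 0.31 (0.18 to 0.44) and 0.32 (0.10 to 0.53), and the part of this shift in the subunit ratios was not tested. The blood, T cell, islet and cardiac muscle genes PTPRC, CD3E, INS and MYH7 had 0 reads in both libraries, which allows up to 1.21 CPM under control siRNA and 0.780 under SRα siRNA, and the liver gene ALB had 0 and 1.

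The catalytic and the smallest subunits are shown by their coding sequence. The results compare the 2 catalytic messages, and OST4 had the lowest ratio of the 10. By counting, the ratio of OST4 was apart only from that of OSTC, so its place as lowest was not resolved. Sequences are from GENCODE 29 transcripts (GRCh38, whereas the reads were aligned to hg19). In STT3A (chr11:125614087-125614149, plus strand, codons 519 to 539) and STT3B (chr3:31624978-31625040, plus strand, codons 598 to 618) the capitals mark the 5 codons of the WWDYG motif, which belongs to the active site. The 15 bases of the motif were identical in both genes, as were 47 of the 63 bases shown, and over 691 aligned residues the encoded proteins were 62.2% identical.
STT3A: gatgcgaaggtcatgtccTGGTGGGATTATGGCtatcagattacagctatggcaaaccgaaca
STT3B: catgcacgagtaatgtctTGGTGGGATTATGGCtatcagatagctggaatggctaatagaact

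MAGT1 and its paralog TUSC3 carry a CxxC pair of cysteines that forms mixed disulfides with glycosylation substrates. The MAGT1 stretch (chrX:77875430-77875471, minus strand, codons 109 to 122 of the GENCODE transcript) ends at the end of its exon, and the capitals mark the codons of that motif. The predicted proteins of MAGT1 and TUSC3 were 66.9% identical over 341 aligned residues.
MAGT1: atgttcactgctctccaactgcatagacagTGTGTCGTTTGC

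OST4 encodes a protein of 37 residues that helps hold the catalytic subunit in the complex. Its whole coding sequence without the stop codon lies in 1 exon (chr2:27071352-27071462, minus strand), and the capitals mark the start codon.
OST4: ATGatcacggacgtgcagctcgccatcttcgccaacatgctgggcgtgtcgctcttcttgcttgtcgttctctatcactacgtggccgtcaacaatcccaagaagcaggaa

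The subunit messages were abundant, and their levels kept nearly the same order in both libraries. Together the 10 genes held 0.503% of gene reads under control siRNA and 0.465% under SRα siRNA. Levels of different genes are compared here as RPKM, the CPM divided by the length of the gene's merged exons in kilobases. The scaffold subunit RPN2 was highest, at 426 RPKM under control siRNA and 414 under SRα siRNA. RPN1, which lies beside newly made chains in the complex, had 260 and 252, and DAD1, a small subunit first known as a defender against apoptotic death, had 273 and 237. The counting intervals of RPN1 and DAD1 overlapped in both libraries, so their order was not resolved. DDOST, a membrane subunit that helps stabilise the complex, had 224 and 201 RPKM, and OST4 had 153 and 128.

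The subunits of single forms were lower per length than most shared ones. OSTC, which joins the STT3A form to the translocon, had 133 RPKM under control siRNA and 138 under SRα siRNA, and its interval overlapped that of OST4 in both. STT3A followed with 106 and 98.9, then MAGT1 with 81.7 and 76.1 and STT3B with 67.3 and 66.2. TUSC3 was lowest, with 10.5 and 9.0. On this scale both catalytic subunits were thus below all 5 shared subunits in both libraries. The intervals of STT3A, MAGT1, STT3B and TUSC3 did not overlap one another. These 4 genes stayed in the lowest places, in this order, when the length of 1 principal transcript or of the coding sequence was used instead. Per coding length, however, the intervals of STT3A and MAGT1 overlapped. Per length of the principal transcript the interval of STT3A overlapped that of OST4 in both libraries, so their order was not resolved on that scale. The places above these 4 genes did not hold, since OST4, with few coding bases, came first per coding length at 990 and 826.

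**Figure D1:**
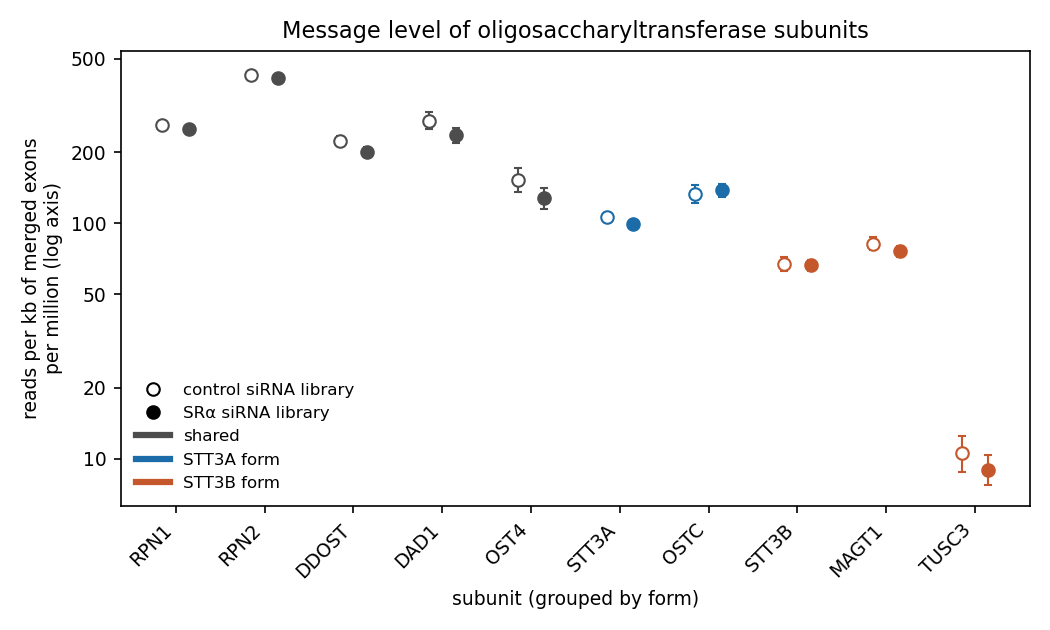
Message level of each subunit in RPKM over merged exons (log axis). Open circles are the control siRNA library, filled circles the SRα siRNA library, colours the form, and bars 95% counting intervals, many of them smaller than the symbol. RPN2 is highest at 426 and 414, TUSC3 lowest at 10.5 and 9.0, and the 2 libraries lie close together for every subunit.

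No subunit message lay far apart between the libraries. Of the 10 subunits, 0 were higher by 1.5-fold or more after SRα siRNA and 0 were lower by that much. Over the 12747 measured genes (a mean of at least 1 CPM) these shares were 6.55% and 6.97%. Over the 4007 genes of at least 50 CPM, a range that holds all 10 subunits, they were 0.175% and 0.0499%, so that almost no gene read as deeply passed this size. Within it, 9 of the 10 subunits were lower in the SRα siRNA library, by small amounts, against 40.1% of genes of at least 50 CPM. Their median log2 ratio was -0.10, where the median over measured genes was 0.01 and over genes of at least 50 CPM 0.04. The summed reads of the 10 genes, 12293 and 18110, gave a log2 ratio of -0.08 (-0.11 to -0.04).

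For 4 subunits the interval lay wholly below 0, and for 0 it lay above. Among genes of at least 50 CPM the corresponding shares were 4.89% below and 11.7% above. Deeper genes have narrower intervals. Among the 1062 genes of at least 200 CPM the shares were 7.06% below and 23.2% above, and 3 of the 8 subunits in that range were below. The 4 were the shared subunits DDOST, DAD1 and OST4 and the catalytic subunit STT3A. The count depends on the scaling. It was 7 with library totals (background 8.01% of genes of at least 50 CPM), with totals that leave out mitochondrially encoded and the 10 most-read genes (7.56%) and with the GC correction (6.57%), each of which added RPN1, RPN2 and MAGT1.

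**Figure D2:**
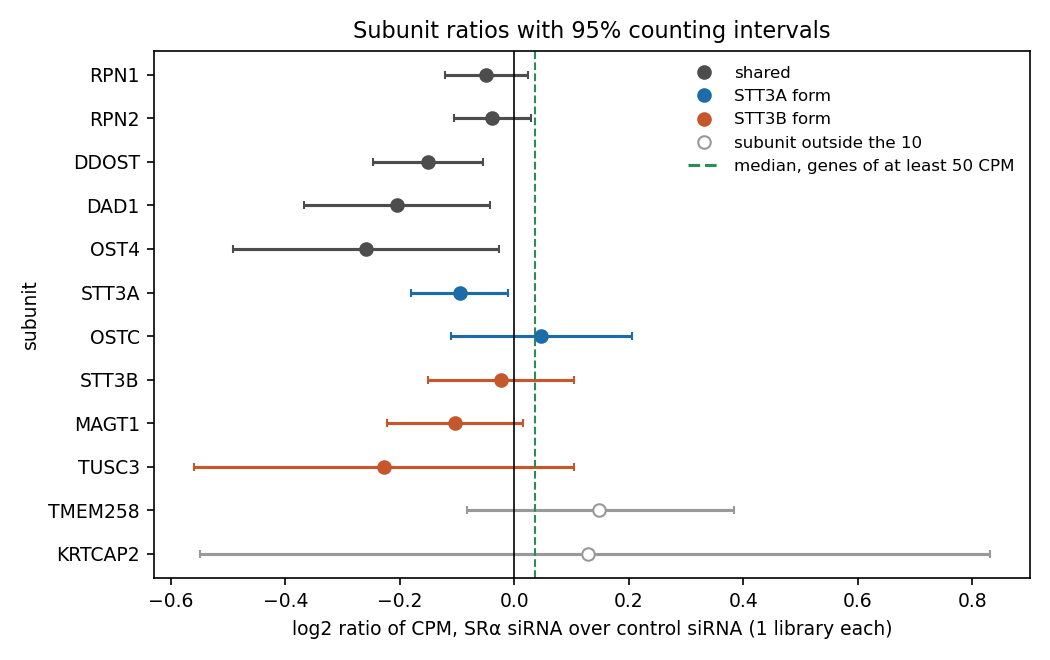
Log2 ratio of CPM, SRα siRNA library over control siRNA library, for the 10 subunits and for TMEM258 and KRTCAP2 (open symbols), with 95% counting intervals. The dashed line is the median of genes of at least 50 CPM, 0.04. Subunit ratios run from -0.26 in OST4 to 0.05 in OSTC, and the intervals of DDOST, DAD1, OST4 and STT3A lie below 0.

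Among the 5 shared subunits taken here, the 3 smaller ones had the lower ratios, but by counting none was apart from RPN1 or RPN2. Size did not go with a lower ratio in TMEM258, a shared subunit of 79 residues outside the 10 genes, which had 0.15 (-0.08 to 0.38). OST4 was counted 272 times in the control siRNA library and 353 times in the other, deeper library, or 110 and 91.7 CPM. Its log2 ratio was -0.26 (-0.49 to -0.03), or 0.835 times the control level, and 3.04% of genes of at least 50 CPM had a lower ratio. DAD1 had 546 and 736 reads, or 220 and 191 CPM, with a log2 ratio of -0.20 (-0.37 to -0.04). DDOST had 1507 and 2109 reads, or 609 and 548 CPM, with -0.15 (-0.25 to -0.05), a level 9.93% lower. All 3 were lower under SRα siRNA, OST4 most, by 16.5% of its control level, though counting did not resolve the order of the 3. OST4 shares 151 exonic bases with AGBL5 on the opposite strand, which had 72 and 80 reads. The use of strand in counting is not given, and without it reads from this overlap cannot be assigned. DDOST shares 427 exonic bases with PINK1-AS on the same strand, which had 0 reads in both libraries, and reads within that overlap may have been set aside as ambiguous.

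The 2 ribophorins were close to equal and were also the most precisely measured. RPN1 had 2574 and 3867 reads, or 1039 and 1005 CPM, and a log2 ratio of -0.05 (-0.12 to 0.02). RPN2 had 2971 and 4495 reads, or 1200 and 1168 CPM, and -0.04 (-0.11 to 0.03). For RPN2 the interval of the level ran from 0.929 to 1.02 times that of the control. Over the 5 shared subunits the median log2 ratio was -0.15 and the summed reads, 7870 and 11560, gave -0.08 (-0.12 to -0.04). The sum is weighted toward the ribophorins and the median is not.

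In the STT3A form the 2 genes had ratios on either side of 0. STT3A had 1935 and 2814 reads, or 781 and 731 CPM, with a log2 ratio of -0.10 (-0.18 to -0.01). OSTC, with 534 and 857 reads, or 216 and 223 CPM, was the one subunit with a higher level in the SRα siRNA library, at 0.05 (-0.11 to 0.21), an interval that includes 0. The summed reads of both genes, 2469 and 3671, gave -0.06 (-0.14 to 0.01). STT3A shares 80 exonic bases with CHEK1 on the same strand. OSTC has 7 pseudogene entries in the files, with 0 reads each under control siRNA and at most 3 each under SRα siRNA, but alignments to several places were set apart in a summary line and not assigned to genes, so the level of OSTC itself may be understated.

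In the STT3B form all 3 genes were lower under SRα siRNA, with intervals that include 0. STT3B had 835 and 1277 reads, or 337 and 332 CPM, and a log2 ratio of -0.02 (-0.15 to 0.10). MAGT1 had 984 and 1423 reads, or 397 and 370 CPM, and -0.10 (-0.22 to 0.02). TUSC3 had 135 and 179 reads, or 54.5 and 46.5 CPM, and -0.23 (-0.56 to 0.10). Counting error on TUSC3 reaches 0.33 on the log2 scale to either side, so a difference of the size seen in DAD1 or OST4 was not detectable there. The summed reads of the 3 genes, 1954 and 2879, gave -0.08 (-0.16 to 0.01).

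The balance between the forms did not differ between the libraries beyond counting error. Ratios of 2 genes within a library do not depend on how the libraries are scaled. There were 2.32 reads of STT3A for each read of STT3B under control siRNA (2.14 to 2.52) and 2.20 under SRα siRNA (2.06 to 2.36). The second ratio was 0.951 times the first, with an exact conditional interval of 0.855 to 1.06, which includes 1. Per kilobase of merged exons STT3A exceeded STT3B 1.57 and 1.49 times, and per kilobase of coding sequence 2.72 and 2.58 times, so STT3A was the more abundant catalytic message on every scale used.

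The summed reads gave the same picture. STT3A form genes over STT3B form genes came to 1.26 under control siRNA and 1.28 under SRα siRNA, and the ratio between libraries was 1.01 (0.934 to 1.09). Shared subunits over the STT3A form changed by a factor of 0.988 (0.931 to 1.05) and over the STT3B form by 0.997 (0.934 to 1.06). For the summed reads, these intervals hold shifts of several percent either way and leave out shifts of 10% or more, as far as counting goes. They do not bound single genes, since the sums are weighted toward RPN1, RPN2 and STT3A. By gene, the median log2 ratio was -0.15 for the shared subunits, -0.02 for the STT3A form and -0.10 for the STT3B form.

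MAGT1 was the main thioredoxin-like subunit of the STT3B form at the message level. TUSC3 made up 12.1% of the reads of both genes under control siRNA (exact binomial interval 10.2% to 14.1%) and 11.2% under SRα siRNA (9.67% to 12.8%). The 2 intervals overlap, and the ratio of MAGT1 to TUSC3 differed by a factor of 1.09 (0.853 to 1.39). Per kilobase of merged exons MAGT1 exceeded TUSC3 7.78 and 8.49 times, and per kilobase of 1 principal transcript 2.70 and 2.94 times, because the principal TUSC3 transcript used here is much shorter than its merged exons.

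Of all 45 pairs of subunits, 3 had a ratio that differed between the libraries beyond its own counting interval, and OSTC was in each. Relative to OSTC, DDOST stood at 0.872 times its control ratio (0.767 to 0.992), DAD1 at 0.840 (0.717 to 0.983) and OST4 at 0.809 (0.665 to 0.984). These 3 of 45 intervals were not adjusted for the number of pairs, and all 3 end close to 1. Some of 45 intervals at 95% can leave out 1 by counting error alone. OSTC had the highest log2 ratio among the subunits paired here, 0.05, and the 3 pairs share its counts. They are therefore not separate results, and they do not single out OSTC beyond its place as highest.

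**Figure D3:**
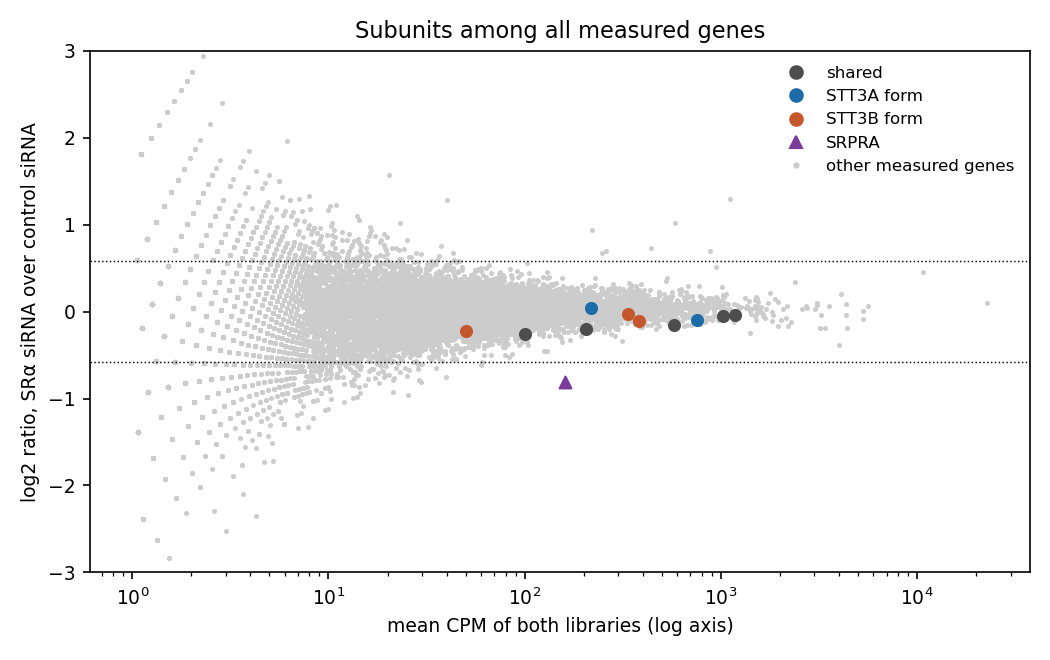
Log2 ratio against mean CPM (log axis) for all measured genes (grey), the 10 subunits coloured by form, and SRPRA (triangle). Dotted lines mark 1.5-fold, and 24 genes beyond 3 on the log2 scale are outside the plot. The subunits lie inside the dotted lines, mostly just below 0, and SRPRA lies apart below them.

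The subunits differ in properties that the choice of genes did not use. The predicted proteins run from 37 residues in OST4 and 113 in DAD1 to 705 in STT3A and 826 in STT3B. Stretches of 19 residues with a mean Kyte-Doolittle hydropathy of at least 1.6 numbered 10 in STT3B, 6 in STT3A, 4 each in MAGT1 and TUSC3, 3 in DAD1, 2 each in RPN2, DDOST and OSTC, and 1 each in RPN1 and OST4. The sequon that OST recognises, asparagine followed after any residue but proline by serine or threonine, occurred in 6 of the 10 predicted proteins, most often in STT3B (6) and STT3A (4), and not in DDOST, DAD1, OST4 or OSTC. The catalytic subunits of both forms thus held the most sequons, but they were also the longest of the 10 proteins. The counts were not divided by length, and TUSC3 held 3 sequons in 348 residues.

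Correlations of the ratio with GC content, length and level over the 10 subunits were moderate in size and were not tested. OST4 and TUSC3, with the lowest ratios, also had the widest counting intervals. Spearman's rho of the log2 ratio was -0.42 with transcript GC content (Pearson -0.45), 0.50 with the log2 length of the principal transcript (Pearson 0.50) and 0.54 with the log2 mean CPM (Pearson 0.59), over 10 genes that share the same 2 libraries. Over 3958 genes of at least 50 CPM, rho with GC content was -0.28. GC content ran from 40.8% in MAGT1 to 55.3% in OST4. When the median ratio of genes of like GC content (1 of 10 bins) was subtracted, all 10 subunits were below 0, OSTC at -0.01 and TUSC3 lowest at -0.26, with a median of -0.15. The subtraction sets the median of each bin to 0, so this count cannot be read against the 40.1% of genes lower before it. The subtracted median was above 0 for every subunit but DDOST and OST4 (-0.01 for both), which by itself lowers those ratios.

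The subunits outside the 10 genes had ratios on the other side of 0. TMEM258, a shared subunit, had 242 and 417 reads, which gave 0.15 on the log2 scale (-0.08 to 0.38), and KRTCAP2, of the STT3A form, had 30 and 51 reads, which gave 0.13 (-0.55 to 0.83). Both intervals include 0. TMEM258 shares 166 exonic bases with FEN1 and 400 with MYRF on the opposite strand, so its reads are uncertain without strand. KRTCAP2 shares 705 exonic bases on the same strand with an unnamed coding gene that had 0 reads, so its own count may be low through ambiguous reads.

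Genes acting before the transferase were spread evenly about 0. Of 24 genes that build the dolichol-linked glycan, 12 were higher and 12 lower, with a median log2 ratio of 0.01. In each direction 1 of the 24 passed 1.5-fold, where 6.55% of measured genes were higher and 6.97% lower by that much. The lower one was ALG10, which adds the last glucose, with 74 and 73 reads and -0.65 (-1.14 to -0.17), and it shares sequence with ALG10B, so its count is uncertain. The higher one was ALG9, a mannosyltransferase, with 2 and 6 reads and a wide interval of -1.53 to 4.29 that includes 0. DPM1, the catalytic subunit of dolichol-phosphate mannose synthase, had 311 and 601 reads and 0.31 (0.11 to 0.52).

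Genes acting after the transferase had a median like that of the subunits. Of 15 genes of glycan trimming and of the folding cycle that reads the trimmed glycan, 4 were higher and 11 lower, with a median of -0.10, and 0 passed 1.5-fold. ERLEC1, a lectin of ER-associated degradation, had -0.27 (-0.60 to 0.06), and EDEM3, a mannosidase-like protein of the same route, had 0.16 (-0.16 to 0.48). The intervals of 3 of the 15 lay below 0 and of 0 above, where 4.89% and 11.7% of genes of at least 50 CPM did. Those 3 were UGGT1, the folding sensor that adds glucose back, at -0.17 (-0.31 to -0.03), PRKCSH, the glucosidase II beta subunit, at -0.10 (-0.17 to -0.02), and the lectin chaperone CALR at -0.08 (-0.11 to -0.05). Each averaged over 200 CPM, where the shares were 7.06% below and 23.2% above, while some of the 15 averaged less than 50 CPM. NGLY1, which removes glycans in the cytosol, had 0.26 (-0.10 to 0.64).

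The neighbours of OST at the translocon had medians near 0, with some members as low as the lowest subunits. The translocon list of 12 genes held SEC61, the translocon-associated (TRAP) complex, which binds close to OST, and also SEC62, SEC63, TRAM1 and TRAM2. Its median was 0.02, with 7 higher and 5 lower and 0 past 1.5-fold. Outside SEC61 and TRAP, SEC62, SEC63 (0.15) and TRAM2 (0.16) were among the higher genes and TRAM1 (-0.12) among the lower. The highest SEC61 or TRAP gene was SEC61B, at 0.11 (-0.06 to 0.29). The 12 genes ranged from SEC61A2 at -0.37 (-0.79 to 0.05) to SEC62 at 0.17 (-0.02 to 0.38). The intervals of 3 of the 12 lay below 0 and of 0 above, where 4.89% and 11.7% of genes of at least 50 CPM did. Those 3 were the TRAP subunits SSR4 at -0.29 (-0.42 to -0.15) and SSR2 at -0.21 (-0.31 to -0.10) and the channel subunit SEC61A1 at -0.11 (-0.20 to -0.02). All 3 averaged over 200 CPM, where the shares were 7.06% below and 23.2% above, while some of the 12 averaged less than 50 CPM. The summed reads of the 12 genes gave -0.05 (-0.09 to -0.01). The 5 signal peptidase genes had a median of 0.00, from SPCS1 at -0.24 (-0.47 to -0.01) to SEC11A at 0.14 (-0.05 to 0.33). The differences between these medians and that of the subunits were not tested.

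**Figure D4:**
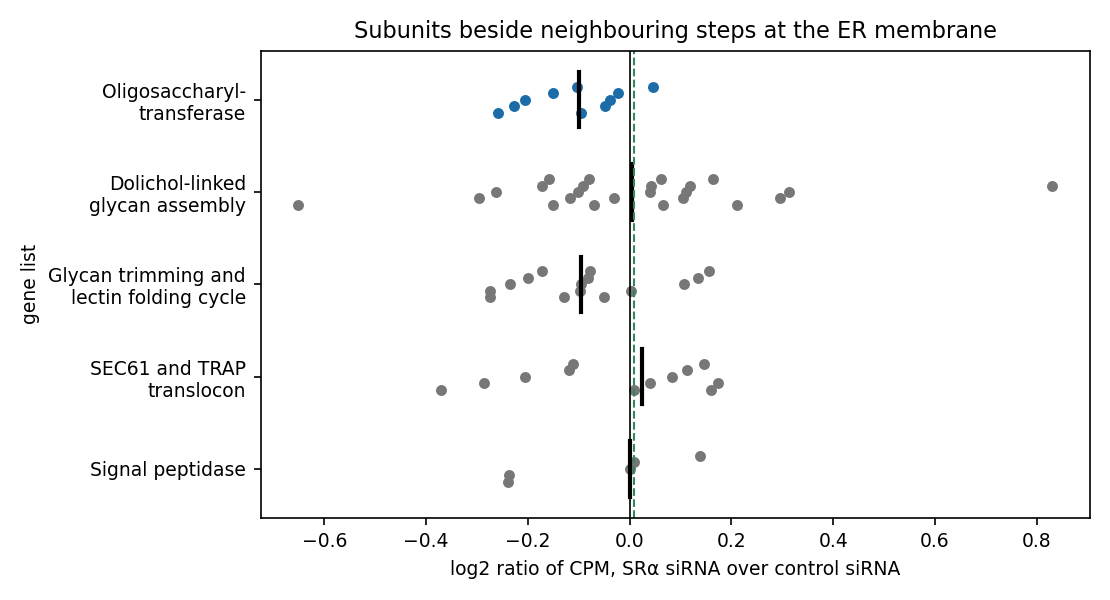
Log2 ratios of the 10 subunits (blue) and of genes of 4 neighbouring steps (grey), 1 point a gene, with the median of each list as a black bar. The dashed line is the median over measured genes, 0.01. The medians are -0.10 for the subunits, 0.01 for dolichol-linked glycan assembly, -0.10 for trimming and the folding cycle, 0.02 for the translocon and 0.00 for signal peptidase.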

How the data were processed

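RNA was extracted with TRIzol and sequenced from TruSeq Stranded mRNA libraries, per the labels' protocols. The authors deposited raw read counts for each Ensembl gene ID. The tools named are STAR 2.5.2b and cutadapt and the build is hg19, per the submitters' processing notes. How reads were counted, with what strand setting and annotation, is not given in the sources used here. The 5 summary lines of each file name no gene and were left out. In them, alignments that were not unique made up 79.6% (control siRNA) and 76.5% (SRα siRNA) of all entries.

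Libraries were scaled with edgeR 4.0.16 TMM factors (R 4.3.3) to effective sizes of 2476276 and 3847820. Log2 ratios used a prior count of 0.5 scaled to depth. Intervals are exact (Clopper-Pearson) given the sum of both counts, or exact conditional for a ratio of ratios, and without molecular identifiers they cover counting error only. Symbols, lengths and GC content were joined by gene ID, from a gene name table and GENCODE 29. Scripts were tested on simulated data.

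The members and lists were chosen with earlier results of these data known. Named genes outside the 10 are the highest and lowest of each list with a mean of at least 20 CPM, those past 1.5-fold with an interval that leaves out 0, SRPRA, TMEM258, KRTCAP2 and a list of cell type markers. ALG9, UGGT1, PRKCSH, CALR, SSR2, SSR4 and SEC61A1 were named after their values were seen. The limits of 50 and 200 CPM for the background, and the principal transcript length, were added after the values were seen. Alternatives were DESeq2 1.42.0 size factors, other totals, upper quartile factors, a prior count of 2, other filters, a GC correction and other lengths. Scripts ran in Python 3.11.15 with scipy 1.17.1, Biopython 1.88, numpy 2.4.6 and pandas 2.3.3.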

Additional observations from a re-analysis of the deposited data

How the results depend on the processing

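Under 6 other scalings, priors or corrections, all 60 recomputed subunit ratios stayed within their counting interval and 59 kept their sign. The exception was OSTC, at -0.01 after the GC correction. The counts of 0 subunits past 1.5-fold in either direction did not change. The median log2 ratio of the 10 subunits, -0.10, moved to -0.14 with library totals and to -0.15 with the GC correction, and lay between -0.13 and -0.09 in the other settings. The number of subunits with an interval wholly below 0, 4, became 7 with library totals, 7 with totals without mitochondrially encoded and the 10 most-read genes and 7 with the GC correction, and the number above stayed 0. These counts were recomputed as an alternative chosen after seeing the data. The medians of the shared subunits and of both forms stayed below 0 in each of 9 settings. The other filters among these settings kept all 10 subunits, so they could not move a median or a count. The median of the STT3A form, -0.02, is of 2 genes on either side of 0. The intervals of the summed reads of both forms include 0. The ratio of STT3A to STT3B, 2.32 and 2.20 per read, became 1.57 and 1.49 per kilobase of merged exons, 2.16 and 2.05 of the principal transcript, and 2.72 and 2.58 of coding sequence. No paired analysis was possible because there was 1 library per group. For the same reason no library could be left out. Depth limits TUSC3 most among the 10.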
